A study of Mus musculus with 2 samples.

Results

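Replication-dependent histone genes make the bulk of the histone protein that packs newly copied DNA. They are transcribed mainly in S phase, lie in clusters, mostly lack introns, and their messengers end in a stem-loop, bound by Slbp, in place of a poly(A) tail. Npat, a coactivator that cyclin E and Cdk2 phosphorylate, switches them on together, through type-specific promoter elements such as the octamer of H2B genes, the AAACACA box of H1 genes and the cell-cycle element of H4 genes. H2A, H2B, H3 and H4 form the core of the nucleosome, and H1 binds the linker DNA between nucleosomes. In a muscle of young mice the nuclei inside fibres have left the cell cycle, while muscle stem cells and cells between the fibres still divide.

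The genes were the 67 protein-coding genes of GENCODE M21 (mm10) whose names begin with Hist1h, Hist2h, Hist3h or Hist4h, of 21911 protein-coding genes off the mitochondrial chromosome. No member was filtered out. By type they were 6 H1, 18 H2A, 18 H2B, 12 H3 and 13 H4 genes. By cluster 54 belonged to Hist1 on chromosome 13, 10 to Hist2 on chromosome 3, 2 to Hist3 on chromosome 11 and 1 to Hist4 on chromosome 6. The data were DNase-seq, which maps open chromatin by where the enzyme DNase I cuts nuclear DNA, from the calf muscle gastrocnemius of B6CASTF1/J females, F1 hybrids of C57BL/6J and CAST/EiJ, at 10 days of age. There was 1 group of 2 libraries, labelled biological replicates 1 and 2, each of 3 pooled females, and no other condition, so no test over samples was possible. Tissue was not sorted, so each value is a mixture over fibre nuclei and all other nuclei, in which fewer open nuclei and less cutting per nucleus cannot be told apart, and reads of both parental genomes were placed on a C57BL/6J reference.

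The replicate 1 library had 114758 peaks in its shorter deposited list and the replicate 2 library 26804, with a median height (the authors' depth-normalized signal) of 1.18 and 1.48. Heights were therefore ranked within each library, and the gap between the libraries is the only measure of error. The labelled tissue was only partly visible at promoters: of 10 fibre markers, 4 had a promoter peak in replicate 1 and 3 in replicate 2. Of all protein-coding genes, 66.7% and 51.4% had one. Ckm (2.63 and 3.46 in replicates 1 and 2) and Actn3 (14.7 and 5.02) had one in each library, and Tnnt3, Myh4, Myh1, Des and Myog had none in either. Of 2 satellite cell markers, Pax7 had a peak in replicate 2 only (1.19) and Myf5 had none. Of 6 markers of other cells, 3 had a peak in replicate 1 and 2 in replicate 2. Rbfox3 (6.44 and 1.60) and Pdgfra (2.57 and 1.88) had one in each library, Adipoq in replicate 1 only (0.513), and Pecam1, Ptprc and Sox10 none. All 4 proliferation markers, Mki67, Top2a, Ccna2 and Ccnb1, had one in each library (5.18 to 16.2 in replicate 1 and 1.05 to 4.57 in replicate 2). Among genes with a promoter peak they ranged from percentile 43.1 to 87.6 in replicate 1 and from 8.21 to 96.9 in replicate 2. The share of dividing cells was not measured.

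The promoter of the best-ranked gene of each type, by the sum of its height ranks in both libraries, is shown for the elements that each type carries. The sequences are RefSeq's on GRCm38.p6, from 250 bases before to 50 after the RefSeq start, printed 5′ to 3′ on the strand of the gene. Capitals mark exact matches, on either strand, to TATAAA, which binds the TATA-binding protein, CCAAT, which binds NF-Y, the octamer ATTTGCAT, which binds Pou2f1, the H1 box AAACACA, the core of the H4 cell-cycle element GGTCC, which binds Hinfp, and the Sp1 site GGGCGG. TTTCGCGC and TTTGGCGC (E2F sites) and TGACGTCA (cyclic AMP response element) were searched too and had no match in these 5. Hist1h1e lies at chr13:23622509-23622808 (minus strand), Hist2h2aa2 at chr3:96240325-96240624 (minus), Hist2h2bb at chr3:96269450-96269749 (plus), Hist1h3e at chr13:23562336-23562635 (minus) and Hist1h4c at chr13:23698409-23698708 (minus).
Hist1h1e (H1): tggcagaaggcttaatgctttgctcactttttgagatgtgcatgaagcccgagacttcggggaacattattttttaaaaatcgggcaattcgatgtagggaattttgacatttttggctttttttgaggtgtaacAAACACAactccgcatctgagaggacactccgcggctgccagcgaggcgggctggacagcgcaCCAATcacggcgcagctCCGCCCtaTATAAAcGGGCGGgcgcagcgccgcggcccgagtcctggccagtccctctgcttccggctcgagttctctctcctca
Hist2h2aa2 (H2A): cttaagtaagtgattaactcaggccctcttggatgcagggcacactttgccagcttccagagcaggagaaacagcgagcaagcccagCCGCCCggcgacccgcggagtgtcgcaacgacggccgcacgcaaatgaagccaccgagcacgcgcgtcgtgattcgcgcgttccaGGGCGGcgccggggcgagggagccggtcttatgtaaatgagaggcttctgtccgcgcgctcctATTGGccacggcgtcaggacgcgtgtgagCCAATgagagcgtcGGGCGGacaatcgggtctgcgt
Hist2h2bb (H2B): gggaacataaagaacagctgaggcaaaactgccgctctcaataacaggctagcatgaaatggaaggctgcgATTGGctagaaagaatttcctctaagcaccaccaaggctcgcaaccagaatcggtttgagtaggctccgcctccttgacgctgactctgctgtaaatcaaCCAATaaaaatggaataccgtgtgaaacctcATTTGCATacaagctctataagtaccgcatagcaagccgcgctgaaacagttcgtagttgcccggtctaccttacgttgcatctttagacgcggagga
Hist1h3e (H3): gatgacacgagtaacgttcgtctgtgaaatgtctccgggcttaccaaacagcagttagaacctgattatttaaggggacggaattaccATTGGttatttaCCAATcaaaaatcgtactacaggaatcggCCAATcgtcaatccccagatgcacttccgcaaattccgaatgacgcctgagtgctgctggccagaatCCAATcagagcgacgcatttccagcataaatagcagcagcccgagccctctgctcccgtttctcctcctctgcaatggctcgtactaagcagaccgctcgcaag
Hist1h4c (H4): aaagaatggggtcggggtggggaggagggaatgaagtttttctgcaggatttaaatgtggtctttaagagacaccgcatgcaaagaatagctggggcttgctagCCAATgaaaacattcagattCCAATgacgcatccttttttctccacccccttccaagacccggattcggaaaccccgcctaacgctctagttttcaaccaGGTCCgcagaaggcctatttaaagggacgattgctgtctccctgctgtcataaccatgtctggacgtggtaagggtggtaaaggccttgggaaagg
The H1 promoter holds its H1 box at -115, counted from the RefSeq start, a CCAAT box at -52 and a TATA box at -27. The H2B promoter holds 2 CCAAT boxes and an octamer at -48, the H3 promoter 4 CCAAT boxes, and the H4 promoter 2 CCAAT boxes and the H4 element core at -46.

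The first question was which histone promoters, meaning 1 kb to each side of an annotated transcription start site (TSS), carried a peak. In replicate 1, 60 of 67 histone genes (89.6%) had one, against 66.7% of all protein-coding genes. In replicate 2, 36 did (53.7%), against 51.4% of all. The same 36 had a peak in each library (against 51.0% of all), 24 in replicate 1 only, none in replicate 2 only and 7 in neither. Of all 21911 protein-coding genes, 3444 had one in replicate 1 only and 7197 in neither. Replicate 2 only was the smallest class there too. In 35 histone genes (52.2%) peaks of the libraries overlapped by at least 50% of either peak, against 45.0% of all. When replicate 1 was limited to its 26804 tallest peaks, 34 histone genes (50.7%) had one there, against 49.6% of all genes, and 24 (35.8%) had one in each library, against 44.4% of all. Neighbouring members share peaks, and with starts within 1 kb joined there were 54 separate promoters, of which 49 had a peak in replicate 1 and 30 in replicate 2.

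H4 genes, which code for a core histone, had the highest median among the types. All 13 had a peak in replicate 1 and 8 in replicate 2. The tallest had a median height of 10.5 in replicate 1 (0.680 to 20.2) and 2.68 in replicate 2 (0.997 to 4.59), against 6.30 and 2.03 over all protein-coding genes with a promoter peak. Their median percentile among those genes was 70.2 and 73.3. H1 genes, linker histones, had a peak in 4 of 6 in each library, with median heights of 3.99 and 1.93 (percentiles 35 and 45.2). H2A and H2B genes had the lowest median percentiles: H2A had a peak in 16 and 10 of 18, with medians of 2.28 and 1.91 (percentiles 22.3 and 44.5), and H2B in 16 and 9 of 18, with medians of 2.10 and 1.58 (percentiles 20.8 and 28.6). H3 had a peak in 11 and 5 of 12, with medians of 3.54 and 2.23 (percentiles 31.8 and 59.1). The ranges of all types overlapped in both libraries, and over all members the median was 3.44 in replicate 1 and 2.10 in replicate 2 (percentiles 31.1 and 53.5). That replicate 2 median was 1.75 with a 500 bp window, 1.84 within 250 bp of the start codon and 1.54 in the longer deposited list. With a 2 kb window it was 2.23. The median over all genes is not given for those settings.

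**Figure D1:**
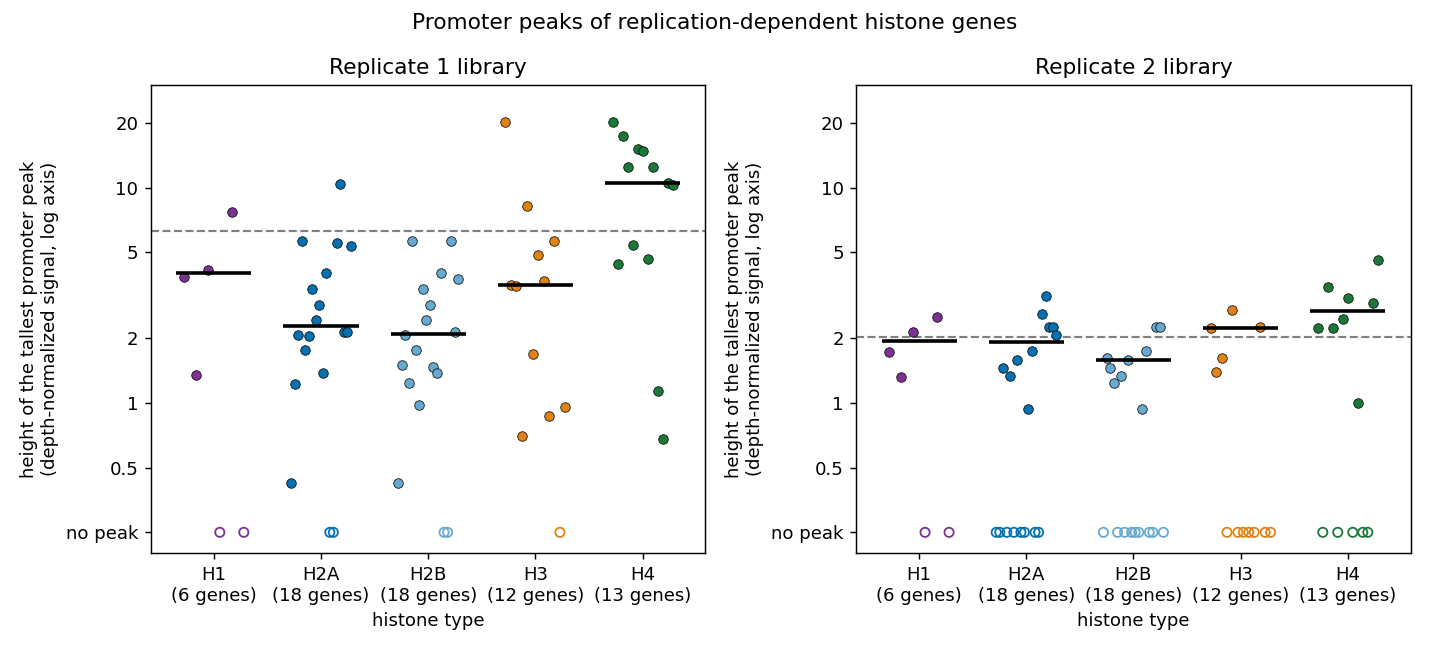
Height of the tallest promoter peak (depth-normalized signal, log axis) of each of the 67 histone genes, by type, in the replicate 1 (left) and replicate 2 (right) libraries. Open circles are genes with no peak, black bars the median of genes with one, and the dashed line the median over all protein-coding genes with a promoter peak (6.30 and 2.03): the H4 median lies above it in both libraries (10.5 and 2.68), while several neighbouring genes share 1 peak and so 1 height.

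The 3 best-ranked H4 genes were Hist1h4c, Hist1h4a and Hist1h4i. Hist1h4c had a peak of 17.4 in replicate 1 and 3.46 in replicate 2, at percentiles 90.3 and 89.1. Hist1h4a had 20.2 and 2.23, the tallest histone peak of replicate 1 but near the middle of all genes in replicate 2 (percentiles 94.5 and 59.1). Hist1h4i had 14.7 and 3.06, in peaks of which less than 50% overlapped. Hist4h4, the lone member of its cluster, was high in both libraries, with 10.3 in replicate 1 and 4.59 in replicate 2, the tallest histone peak there (percentiles 69.5 and 97.1). Hist1h4k stood apart between the libraries, with 12.4 in replicate 1 and 0.997 in replicate 2 (percentiles 77.5 and 6.83). At or above the 90th percentile of all genes lay 3 of the 60 histone genes with a peak in replicate 1 (Hist1h4a, its neighbour Hist1h3a and Hist1h4c) and 1 of 36 in replicate 2 (Hist4h4).

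Among H1 genes, Hist1h1e led with 7.68 in replicate 1 and 2.5 in replicate 2, before Hist1h1c with 4.14 and 2.13 and Hist1h1a with 3.84 and 1.73. Those 3 kept their order in both libraries. Hist1h1b, the remaining H1 gene with peaks, had 1.35 and 1.32. Among H3 genes, Hist1h3e led with 8.20 and 2.70. Hist1h3a was ranked next with 20.2 and 2.23, but that peak is the one at the Hist1h4a start and is centred 1022.5 bp downstream of the start codon of Hist1h3a in replicate 1; within 250 bp of its own start codon Hist1h3a had 1.34 in replicate 1 and no peak in replicate 2. Hist2h3b had 5.66 and 2.25 from the peak at Hist2h2bb, and 3.08 and 1.53 by its own start codon. Counted only within 250 bp of the start codon, the H3 medians were 3.08 over 11 genes and 1.51 over 4, and the H4 medians stayed at 10.5 and 2.68.

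Among H2A genes, Hist2h2aa2 led with 10.4 in replicate 1 and 3.12 in replicate 2, followed by its near copy Hist2h2aa1 with 5.53 and 2.57 and by Hist3h2a with 5.35 and 2.07. Among H2B genes, Hist2h2bb led with 5.66 and 2.25, then Hist1h2bp with 4.0 and 1.75. Hist2h2be ranked level with Hist1h2bp through the peak of 2.13 and 2.25 at Hist2h2ab; by its own start codon it had 1.35 and 1.84. The median gap in height between the libraries also differed by type, with overlapping ranges. Over genes with a peak in both, the ratio of replicate 1 to replicate 2 height had a median of 2.23 over the 36 histone genes, against 3.92 over all protein-coding genes. It was 5.30 over the 8 H4 genes (2.24 to 12.5), 2.56 over the 5 H3 genes (2.16 to 9.06) and 2.08 over the 4 H1 genes (1.02 to 3.07). It was 1.43 over the 9 H2B genes (0.921 to 2.51) and 1.81 over the 10 H2A genes (0.946 to 3.35). Genes that share 1 peak in each library share 1 ratio. Thus the top H3 ratio, 9.06 at Hist1h3a, is that of the peak at Hist1h4a, and the ratio of Hist2h3b is that of the peak at Hist2h2bb.

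Head-to-head gene pairs, a hallmark of H2A and H2B genes, numbered 13, of which 12 joined an H2A to an H2B gene and 1, Hist1h2bh with Hist1h3f, an H2B to an H3 gene. Their starts lay 176 to 660 bp apart (median 268). Of the 12 H2A/H2B pairs, 10 had a peak within reach of both starts in replicate 1 and 6 in replicate 2. The tallest such peak was that of Hist1h2bf/Hist1h2ad in replicate 1 (5.63, none in replicate 2) and that of Hist2h2ac/Hist2h2be in replicate 2 (2.25, with 2.13 in replicate 1). The latter peak lies at Hist2h2ab and not between the starts of the pair. Within 250 bp of their start codons Hist2h2ac and Hist2h2be each had 1.84 in replicate 2. A peak covered the base halfway between the starts in 6 of the 12 pairs in replicate 1 and in 1, Hist1h2an/Hist1h2bp (4.0 and 1.75), in replicate 2. Pair partners thus share their values and are not separate observations.

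The peaks sat at the start codon and just before it. For H4 genes the centre of the tallest peak lay within 150 bp of the TSS in all 13 genes with a peak in replicate 1 and in all 8 in replicate 2, against 41 of 60 and 19 of 36 over all members. Coverage of H4 genes by peaks was highest 75 bp before the start codon in replicate 1 (90.5% of bases) and 25 bp before it in replicate 2 (51.8%). Of the 33 members whose tallest peaks in the libraries overlapped, the centre was farther downstream in replicate 2 in 21 (63.6%), with a median shift of 40 bp, against 58.3% and 20 bp over all protein-coding genes with 1 start codon. By type the centre was farther downstream in replicate 2 in 4 of 4 H1 genes (by 77 to 320 bp), 4 of 9 H2A, 5 of 8 H2B, 2 of 4 H3 and 6 of 8 H4 genes. Pair partners that share a peak shift in opposite directions. The bases of the tallest peaks were 55.4% G or C in replicate 1 and 60.0% in replicate 2 (medians over those 33 genes), against 66.4% and 65.1% over all genes with overlapping tallest peaks; the part of base composition in the shift was not tested.

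**Figure D2:**
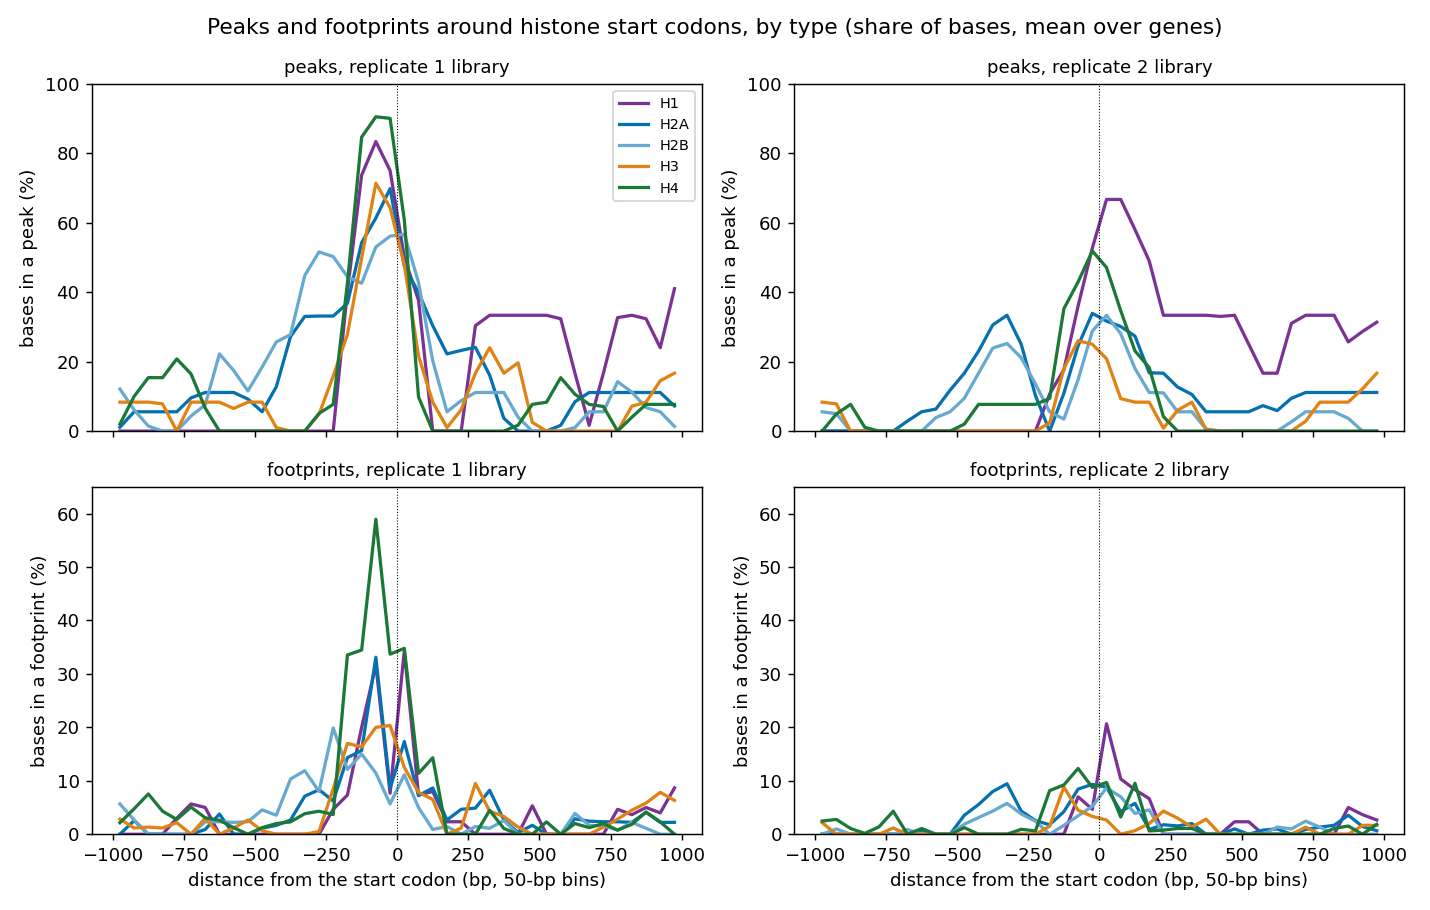
Share of bases covered by peaks (top) and by footprints (bottom) in 50-bp bins by distance from the start codon, averaged over the genes of each type, in the replicate 1 (left) and replicate 2 (right) libraries. H4 genes show the highest maximum in replicate 1, 90.5% for peaks and 58.9% for footprints at -75 bp; in replicate 2 the H2A and H2B lines dip between a maximum near the start codon and another upstream, on the side of the pair partner.

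Footprints are short stretches within open DNA that were cut less than their surroundings. At least 1 lay in the promoter window of 61 histone genes (91.0%) in replicate 1 and 51 (76.1%) in replicate 2, against 69.6% and 57.6% of all protein-coding genes. The median number per histone gene was 6 and 3, the same as over all genes (6 and 3), and among genes with a peak it was 7 and 5, against 9 and 7. H4 genes had a median of 8 in replicate 1 and 3 in replicate 2, and the largest numbers were 20 at Hist3h2a and Hist2h2ac in replicate 1 and 13 at Hist2h2ac in replicate 2. Replicate 1 had more footprints at 53 of the 67 genes, and replicate 2 at 7, among them Hist1h2ac and Hist1h2bc (7 in replicate 1 and 10 in replicate 2 at each) and Hist4h4 (9 and 12). The whole libraries held 468215 footprints in replicate 1 and 115528 in replicate 2. The share of all genes with more in replicate 1 was not computed, so the 53 are not shown to be particular to histone genes.

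RefSeq promoters were found for 62 members (not for Hist1h3f, Hist1h2bc, Hist1h3a, Hist2h2be and Hist2h4), and motif matches there differed by histone type. CCAAT was present in all 6 H1, 18 H2A, 16 H2B and 10 H3 promoters and in 3 of 12 H4 promoters, against 38.2% of all 21262 promoters. GGTCC was present in 11 of 12 H4 promoters and 27 of 62 histone promoters, against 49.0% of all. The octamer was present in 7 H2A and 7 H2B promoters and in none of the other types (14 matches at 11 sites), against 1.66% of all. The H1 box was present in 5 of 6 H1 promoters, 2 H2A and 2 H2B promoters, 9 of 62 in all, against 6.15%. TATAAA was present in 35 of 62, against 12.6%. TTTCGCGC was found in 9, all H2A or H2B promoters, against 0.452%, but head-to-head partners share sequence and the 9 matches are 5 sites. TTTGGCGC was found in 0 of 62, against 0.635%. GGGCGG was present in 24, against 46.2%, and TGACGTCA in 4, against 2.23%. Histone promoters held a median of 11 CpG and 45.3% G or C, against 13 and 56.3% over all promoters. A match says only that the letters are present.

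The matches were next set against peaks and footprints. Of 16 GGTCC matches in H4 promoters, 13 lay in a replicate 1 peak and 10 overlapped a replicate 1 footprint by at least 50% of the motif, and in replicate 2 these were 4 and 2. Peaks of replicate 1 covered 84.6% to 90.5% of H4 bases in the 50-bp bins centred at -125 to -25 bp from the start codon. Footprints covered 33.7% to 58.9% there. The share expected of any position was not computed for any motif, so the counts do not set a motif apart from its surroundings. The match at -46 of Hist1h4c and that at -32 of Hist4h4 lay in a peak and a footprint in each library. With sites shared by neighbouring promoters counted once, all 5 TTTCGCGC sites lay in a replicate 1 peak, 4 of them in a footprint. In replicate 2, 2 of the 5 lay in a peak and 0 of those in a footprint. All 4 TGACGTCA sites lay in a replicate 1 peak and a footprint, and 2 of them in a replicate 2 peak and a footprint. Both TGACGTCA matches at Hist1h4a (-98 and -34) were in a peak and a footprint in each library. Of 11 octamer sites, 3 lay in a replicate 1 peak and 0 of those in a footprint, and 1 lay in a replicate 2 peak. Those inside were at -119 of Hist3h2a, -25 of Hist1h2bm and -48 of Hist2h2bb, and those outside included one at -30 of Hist1h2bk. Of the 5 H1 boxes of H1 promoters, at -122 to -112, only that of Hist1h1d lay in a replicate 1 peak and none in a replicate 2 peak. Of 109 CCAAT sites over all types, 62 lay in a replicate 1 peak and 20 of those in a footprint, and in replicate 2 these were 16 and 5.

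**Figure D3:**
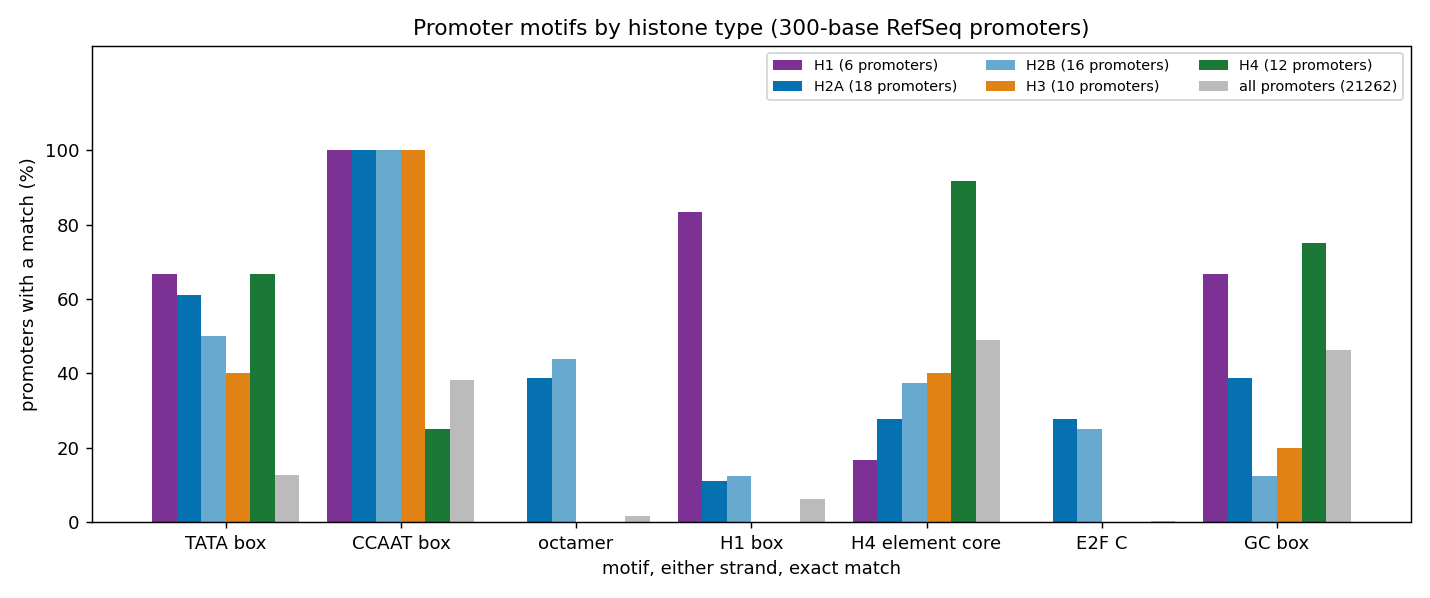
Share of promoters (%) with at least 1 exact match to each motif, by histone type, with all 21262 RefSeq promoters in grey. CCAAT boxes reach 100% in H1, H2A, H2B and H3 promoters and 25% in H4 promoters, while the H4 element core reaches 91.7% in H4 promoters; E2F C is TTTCGCGC.

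The Hist1 cluster fell into 4 blocks, parted where neighbouring histone genes lay over 100 kb apart. From the low-coordinate end of chromosome 13 they held 18, 5, 29 and 2 genes. A peak was present in 14 of 18 genes of the first block in replicate 1 and 6 in replicate 2, in 5 and 3 of the 5 genes of the second, in 27 and 17 of the 29 of the third, and in 2 and 0 of the 2 of the fourth. Median heights were 2.16 and 1.16 in the first block, 3.38 and 1.58 in the second and 3.84 and 1.73 in the third. In the third block, 37 of 44 peaks in replicate 1 and 20 of 22 in replicate 2 lay within 1 kb of a histone TSS. Of its 8 tallest peaks, 5 in replicate 1 and 4 in replicate 2 had an H4 start codon as the nearest.

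**Figure D4:**
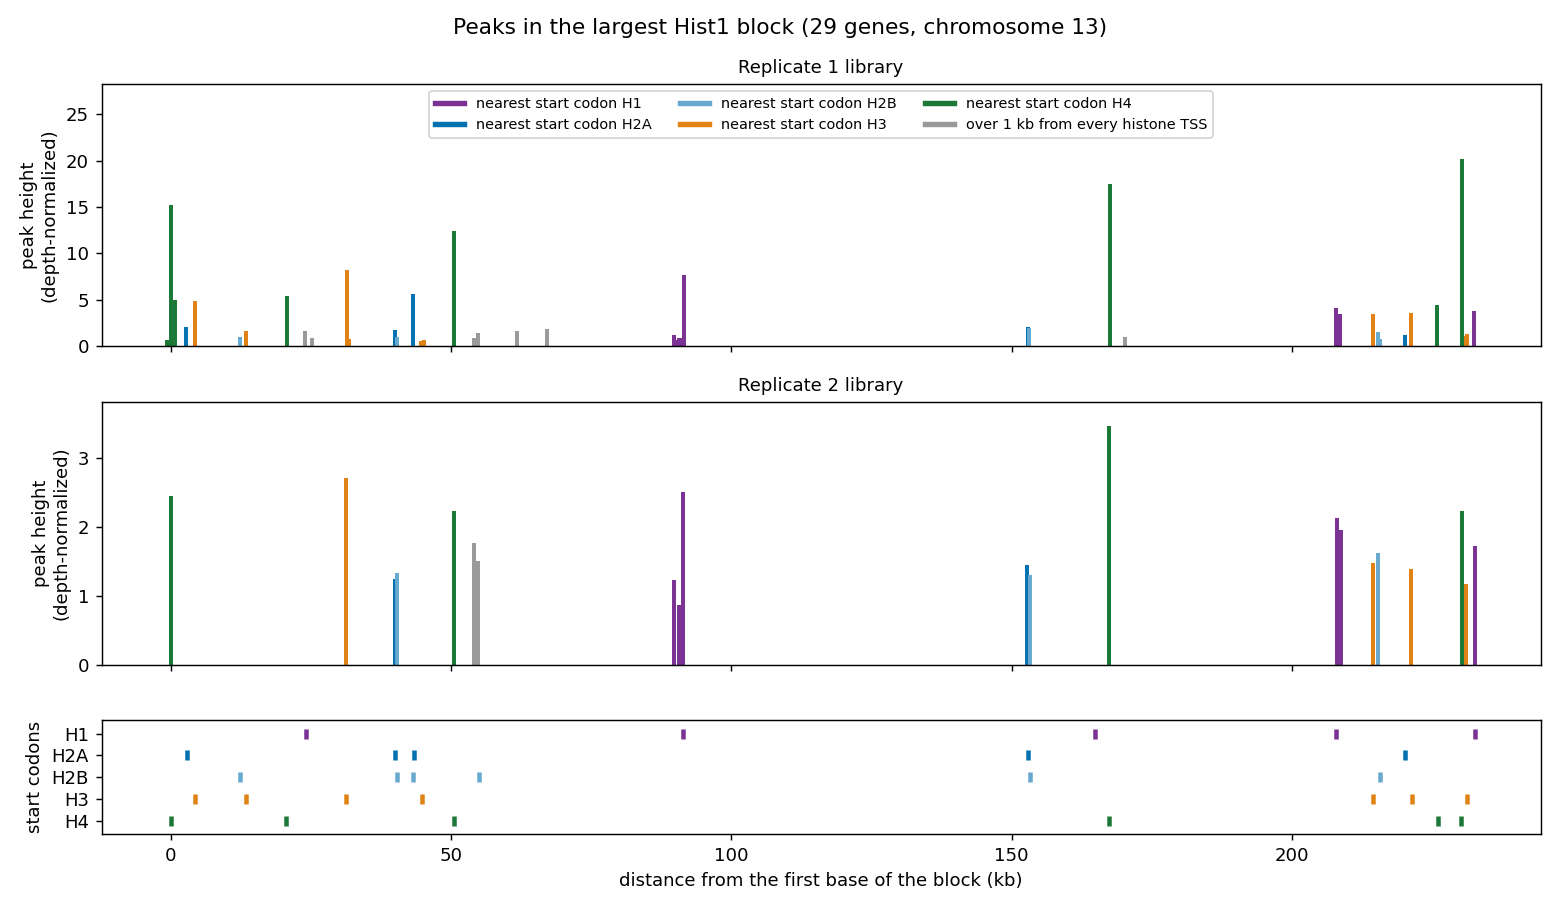
Peaks in the largest Hist1 block (29 genes) by distance from its first base, with height (depth-normalized signal) for the replicate 1 library (top) and, on its own scale, the replicate 2 library (middle), and the start codons by type (bottom). Bars take the colour of the nearest start codon, or grey over 1 kb from every histone TSS; the tallest replicate 1 bars stand at the H4 genes Hist1h4a (20.2), Hist1h4c (17.4), Hist1h4h (15.2) and Hist1h4d (12.4), and the tallest replicate 2 bar at Hist1h4c (3.46).

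In the smaller clusters most genes had a peak in replicate 1. In Hist2, 9 of 10 genes had a peak in replicate 1 and 8 in replicate 2, with median heights of 5.53 and 2.25. The H4 gene Hist2h4 had 10.5 and 2.92. Hist2h2ab had 2.13 and 2.25 (percentiles 21.1 and 59.9). Its neighbours Hist2h2ac and Hist2h2be, within 1 kb of that peak, had 1.76 and 1.84 and 1.35 and 1.84 by their own start codons. Hist2h3c2 had 0.961 in replicate 1 and no peak in replicate 2, and Hist2h3c1 had none in either. In Hist3, Hist3h2a had a peak in each library (5.35 and 2.07) and Hist3h2ba, a few kb away, 6 peaks in replicate 1 (tallest 3.75) and none in replicate 2.

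The 24 genes with a peak in replicate 1 only had lower peaks there (median 2.23, 0.424 to 5.63) than the 36 with a peak in both (median 4.0, 1.24 to 20.2), with overlapping ranges. The H4 genes among them were Hist1h4f (5.41), Hist1h4j (4.67), Hist1h4b (4.43), Hist1h4m (1.13) and Hist1h4n (0.680). The H3 genes were Hist1h3g (4.88), Hist1h3h (3.66), Hist1h3f (1.68), Hist2h3c2 (0.961), Hist1h3i (0.865) and Hist1h3d (0.698). The H2A and H2B genes were mostly pair partners with a common peak: Hist1h2bf and Hist1h2ad (5.63), Hist1h2bl and Hist1h2ai (2.85), Hist1h2ah and Hist1h2bk (2.43), and Hist1h2ba and Hist1h2aa (0.424). The rest were Hist3h2ba (3.75), Hist1h2af (2.03), Hist1h2bm (1.47), Hist1h2ab (1.22) and Hist1h2bh (0.973). Some signal was listed in replicate 2 too: 16 of the 24 had a peak in its longer deposited list, 15 a footprint and 18 at least 1 base with a listed false discovery rate (FDR, up to 0.05). The same counts were not computed over the 3444 protein-coding genes with a peak in replicate 1 only, so they are not shown to be particular to histone genes.

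The 7 genes with no peak in either library differed in how much of their window can be told from the rest of the genome. In Hist1h2bq, Hist1h2ao, Hist1h2ap and Hist1h2br (2 head-to-head pairs in the first block) 0% of the 32-base words in the window occur once in GRCm38, and the RefSeq promoters of Hist1h2bq and Hist1h2br are the same over all 300 bases. In Hist2h3c1 19.4% occur once. Read length, and how reads with several placements were treated, are unknown here, so the part of sequence copies in the lack of a peak was not tested and the values of these genes are uncertain. So are those of Hist1h4m and Hist1h4n, which had peaks in replicate 1 with 4.21% and 4.26% of words found once, of Hist2h3c2 (20.4%), and of the near copies Hist2h2aa2 and Hist2h2aa1 (40.6% and 43.4%). Among the 57 members with at least 50% of words found once, 55 had a peak in replicate 1 and 34 in replicate 2; among the other 10, 5 and 2 did. Windows centred on the start, 250 bp to each side, had a median of 68.5% of words found once over all members, against 100% over all protein-coding genes.

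**Figure D5:**
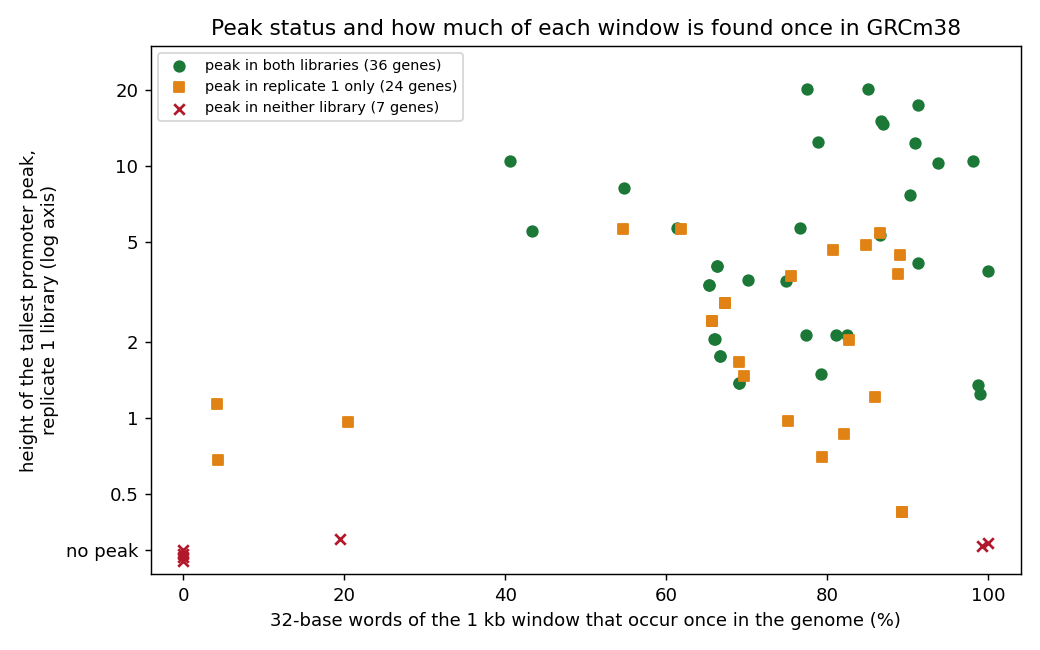
Share of the 32-base words in the promoter window that occur once in the genome (x axis, %) and height of the tallest promoter peak in the replicate 1 library (y axis, log) for the 67 histone genes, by peak status. Of the 7 genes with no peak, 5 lie at 19.4% or below and the other two, Hist1h1d and Hist1h1t, at 99.2% and 100%.

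The other two were H1 genes. In Hist1h1d the annotated TSS lies 1828 bp before the start codon, and replicate 1 had a peak of 1.70 at chr13:23554901-23555080, just before that codon, so its place among the genes with no peak rests on the annotation; replicate 2 had none there. Hist1h1t, the H1 of spermatocytes, had no peak in either library, with 2 footprints in replicate 1 and none in replicate 2. Of the other testis-specific genes, Hist1h2aa and Hist1h2ba had 1 common peak in replicate 1, of 0.424 and percentile 1.35, the lowest of all histone promoter peaks, and none in replicate 2. No peak lay at the promoters of the spermatogenic markers Prm1, Tnp1 and Ddx4 in either library. Hist1h2be is the reverse case of Hist1h1d: its annotated TSS lies 35168 bp from its start codon, with peaks of 1.24 and 1.23, and within 250 bp of the start codon there were peaks of 1.43 and 1.5.

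In the 7 gene blocks (425.8 kb in all), 11 peaks of replicate 1 (0.573 to 1.87) lay over 1 kb from every histone TSS. In replicate 2 there were 3 (0.997 to 1.76). Per 100 kb of block they numbered 2.58 and 0.705, against 4.21 and 0.983 for all peaks over the genome. The block length includes the bases within 1 kb of a histone TSS, where such peaks were not counted, so the block rates understate the density. All 3 of replicate 2 overlapped one of replicate 1. In the largest block, 4 of the 7 of replicate 1 and both of replicate 2 (1.5 and 1.76) lay inside the long Hist1h2be record, and among them are the peaks of 1.43 and 1.5 by its start codon, as the peak of 1.70 by that of Hist1h1d is among the 7. Those blocks hold no transfer RNA (tRNA) gene.

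The gaps between the Hist1 blocks (1854 kb) hold 77 of the 403 tRNA genes of the RefSeq annotation, and most peaks there lay by them. The gaps held 76 peaks in replicate 1 and 19 in replicate 2 (4.10 and 1.02 per 100 kb, against 4.21 and 0.983 over the genome). Of these, 54 and 13 lay within 500 bp of a tRNA gene, and 17 of the 19 overlapped a peak of replicate 1. Of the 77 tRNA genes, 48 (62.3%) had such a peak in replicate 1 and 13 (16.9%) in replicate 2, against 57.8% and 41.4% of all 403. The gaps also hold 36 Vmn1r genes, receptor genes of the vomeronasal organ, none with a promoter peak in either library, and 12 other protein-coding genes, 7 and 3 of which had one.

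Of the 5 peaks between the genes with the best ranks in both libraries, 4 lay at tRNA genes and 1 at a protein-coding gene. That at the isoleucine tRNA gene n-TIaat7 (chr13:22028761-22028960) had a height of 9.55 in replicate 1 and 4.32 in replicate 2. Those at n-TYgta7 (chr13:23432981-23433160) had 7.51 and 3.59, at n-TVcac9 (chr13:23446121-23446280) 6.50 and 3.48, and at n-TRtcg1 (chr13:23526461-23526660) 7.88 and 2.82. The peak at the promoter of Abt1, a transcription activator gene (chr13:23423821-23423980), had 11.9 and 2.80. All 5 were at or above the 89.1 percentile of all peaks in each library, higher than every peak inside the blocks that was far from a histone TSS.

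Genes that serve histone expression were described from a list. Of 25, 25 had a promoter peak in replicate 1 and 23 in replicate 2 (all but Lsm10 and Sympk), with median heights of 12.3 and 2.58 (percentiles 76.9 and 71.3), where 66.7% and 51.4% of all protein-coding genes had a peak. Npat had 23.4 in replicate 1 and 2.61 in replicate 2, and Slbp 13.4 and 4.10. Hinfp, which binds the H4 element, had 16 and 1.73, Casp8ap2, of the histone locus body, 15.2 and 2.55, and Nfya, a subunit of NF-Y, 28.6 and 4.06. Of 13 replication-independent histone genes, whose messengers are polyadenylated, 12 and 11 had a peak, with median heights of 13 and 2.94, among them H3f3b (12.7 and 3.56) and H2afz (19.8 and 3.34), while the oocyte gene H1foo had none. Of 20 S phase genes, 20 and 19 had one (medians 12.6 and 2.47), among them Pcna (10.6 and 2.5) and Mcm5 (19.1 and 4.07). Over the histone genes those medians were 3.44 and 2.10, so the lists stood higher in replicate 1, with overlapping ranges and without a test.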

How the data were processed

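DNase-seq peaks, footprints and interval lists of 2 libraries (1 group) were used as deposited on mm10. Per the README of each library they derive from its own filtered alignments, without pooling. For aligner, callers, thresholds and read totals the sources used here give nothing. Depth is therefore unknown. Peak height is a signal, normalized to read depth by the authors. The deposited FDR is the authors' corrected p-value per interval, listed up to 0.05. The deposited footprint score is 0.01 in every row, so footprints were counted only.

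Of 2 deposited peak lists per library the one with fewer rows was used. Promoters, blocks, pairs, gaps, motif matches (overlapping motifs counted each) and word counts were computed in Python 3.11.15, numpy 2.4.6 and pandas 2.3.3 (matplotlib 3.10.9 for figures), tested on simulated data against bedtools. Where several genes lie within 1 kb of a peak, each is given it. A percentile is the share of protein-coding genes with a promoter peak in that library whose tallest peak was no taller. Named genes: the best 3 per type, all Hist2, Hist3 and Hist4 genes, those with a peak in 1 library or in neither, testis genes, Npat, Slbp and the 5 best peaks between genes; others named (Hist1h4k, Hist1h4h, Hist1h4d, Hist1h1b, Hist1h2be and list examples) were chosen after their values were seen. One entry of 84 in the gene lists (H3f3c) was not found. Members, lists and tests were chosen with earlier results of these data known.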

Additional observations from a re-analysis of the deposited data

How the results depend on the processing

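No paired analysis was possible because there is 1 group and no comparison between groups. Of 66 alternatives, 49 stayed within the set limits (1.5 times for counts, 1 SD between the libraries for heights) and 17 moved; 8 of the 66 (start codons in place of TSS, 250 bp from the start codon, members with at least 50% of words found once) were chosen after seeing the data. With each library taken alone, 60 genes had a peak in replicate 1 and 36 in replicate 2. Those counts stand among the 66 alternatives for genes with a peak in both libraries (36) and with overlapping peaks (35). Neither can be counted in 1 library, so the single-library counts say nothing of how stable they are. Overlapping peaks were found at 23 genes with each library limited to its 26804 tallest peaks and at 22 with overlap of at least 50% of both peaks. The median number of footprints in replicate 1 was 9 with a window of 2 kb, against 6. Peaks between the genes were 17 in replicate 1 (main 11) and 6 in replicate 2 (main 3) in the longer lists, 0 in replicate 1 among its 26804 tallest peaks, and 7 in replicate 1 over 2 kb from a TSS. With 1 mismatch allowed in motifs of 7 or more letters, matching promoters rose to 31 for the octamer, 43 for the H1 box, 17 for TTTGGCGC, 23 for TTTCGCGC and 9 for TGACGTCA, so counts of the longer motifs rest on exact matching; within replicate 1 peaks there were 5 with the octamer, 2 with the H1 box and 1 with TTTGGCGC. Read totals were not used, so what depth limits in replicate 2 cannot be separated from its other differences.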
